A study of Mus musculus with 5 samples.

Results

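Genes of the Wnt pathway were followed in whole E12.5 hearts of 5 wild-type mouse embryos. At this stage the chambers grow and the endocardial cushions are remodelled into valves. Members were probe sets whose 1 gene symbol in the platform annotation named a Wnt ligand, a Frizzled, an Sfrp, Dkk, Dvl or Axin gene, or was Frzb, Wif1, Lrp5, Lrp6, Ctnnb1, Apc, Gsk3b, Lef1, Tcf7, Tcf7l1 or Tcf7l2. This gave 81 probe sets of 51 genes, out of 20380 probe sets of 12393 genes with 1 symbol, array controls left out. Tcf7 matched no probe set analysed here.

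Wnt proteins are lipid-modified secreted ligands that bind Frizzled receptors, and for signalling through beta-catenin also the co-receptors Lrp5 and Lrp6. Without ligand, a complex of Axin, Apc and the kinase Gsk3b marks beta-catenin for degradation, and with ligand Dishevelled (Dvl) proteins disable that complex, so that beta-catenin reaches the nuclear factors Tcf and Lef1. Another branch acts through Frizzleds and Dishevelled without beta-catenin and orients cells in a tissue. In the developing heart the pathway is known for its roles in progenitor growth, in the outflow tract and in cushion and valve formation.

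Affymetrix mouse 430A arrays were used, 1 per heart, and the hearts keep their label numbers, 6 to 10. The strain was 129P2/OlaHsd backcrossed to C57BL/6 for 2 generations, with no transgene or treatment in the labels, and 10 ng of total RNA per sample was amplified. The labels do not say whether the embryos shared a litter. The hearts form 1 group, so the data allow 2 questions, which members gave signal and how far they differed between hearts.

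Values are log2(intensity + 16), called the level below, on which an intensity of 0 is a level of 4. A gene stands for its probe set of highest mean. For each array a background was set at the 95th percentile over 62 genes typical of other tissues (lens, retina, testis, pancreas and others); it lay between 4.99 and 5.46. Detected means above it in all 5 hearts. Levels of different genes are not compared, because probe sets respond unequally. In whole tissue, fewer cells of a type and less RNA per cell cannot be told apart.

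All 12 cardiomyocyte markers were detected, as were 10 of 12 markers of cushion mesenchyme and 9 of 12 of endocardium and endothelium. The counts were 6 of 8 for epicardium, 7 of 10 for red cells and 4 of 10 for macrophages and leukocytes. They were 1 of 9 for liver, 3 of 8 for neurons and 2 of 10 for lung and foregut epithelium. The neuron markers detected were Stmn2, Nefl, whose smallest margin over background was 0.10, and Isl1. Isl1 and the cushion marker Vcan are also counted among the Wnt targets below. Of 9 neural crest and smooth muscle markers 4 were detected, Crabp1, Acta2, Tagln and Cnn1. Ednrb and Myh11 exceeded background in some hearts, and Sox10, Foxd3 and Pax3 in none. Beside these counts, 52.5% of all genes were detected. Pecam1 was above background in 1 heart (5.00 against 4.99 in heart 10) and Cdh5, a defining endothelial junction gene, in none. Pairwise Pearson's r across genes, which are not independent replicates, lay between 0.965 and 0.983, and no arrays held identical values. The Gapdh control probe sets gave a 3' over 5' ratio of 5.69 in heart 7, against 2.50 to 3.55 elsewhere. The beta-actin controls gave 4.48 in heart 8 and 4.27 in heart 7, against 3.20 to 3.67 elsewhere. With 5 arrays, their number limits how precise any mean can be.

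Of the 51 member genes, 15 were detected (29.4%), while 52.5% of all genes were. A further 12 members exceeded background in some hearts and 24 in none, where 30.2% of all genes exceeded it in none. Counted by probe set, 23 of 81 members were detected (28.4%), against 46.8% of all probe sets, and 34 of 81 exceeded background in no heart, against 33.5%. By role, detection covered 2 of 19 ligands, 4 of 11 receptors, 3 of 10 secreted antagonists, 4 of 8 cytoplasmic mediators and 2 of 3 nuclear factors. By probe set they were 2 of 23, 5 of 20, 6 of 15, 7 of 16 and 3 of 7, in that order. Nuclear factors lay above the share of all genes when counted by gene. Counted by probe set, every role lay below the share of all probe sets. These counts carry no test, and an undetected gene may still be expressed below what its probe set can show.

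**Figure D1:**
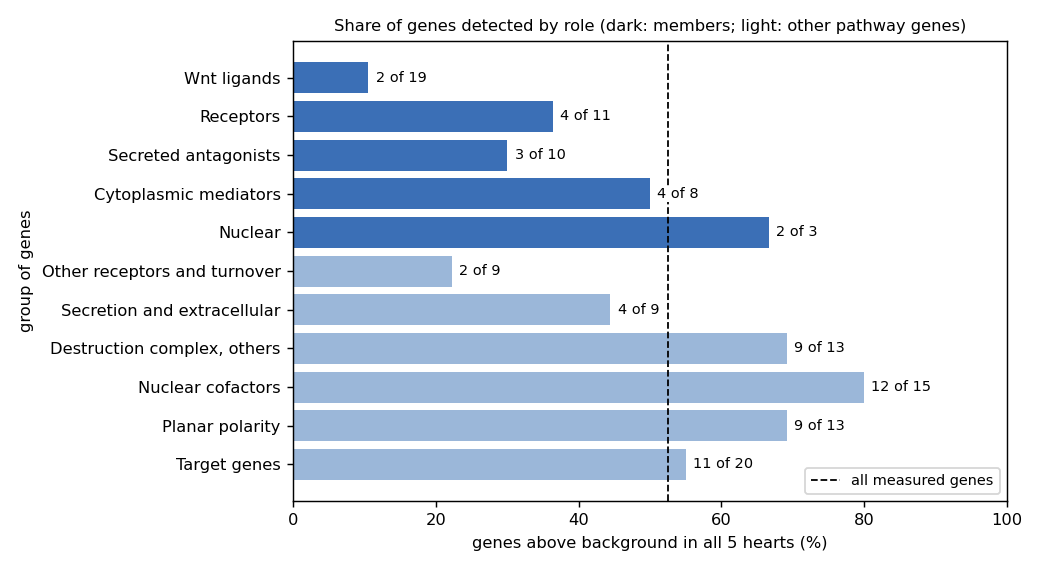
Share of genes above background in all 5 hearts (x axis, percent) for the members by role (dark bars) and for 6 lists of other Wnt pathway genes (light bars), with counts at the bar ends. The dashed line is the share over all measured genes, 52.5%; the ligands, at 2 of 19, lie farthest below it.

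The detected ligands were Wnt5a and Wnt5b, which are best known for signalling without beta-catenin. Wnt5a (probe set 1448818_at) had levels of 5.80, 5.76, 6.38, 6.06 and 6.35 in hearts 6 to 10, a mean of 6.07 ± 0.30 (SD, n = 5). It was highest in hearts 8 and 10, and its smallest margin over background was 0.30. Its second probe set, 1436791_at, had 5.99, 5.21, 6.33, 5.84 and 6.23, also highest in hearts 8 and 10 and lowest in heart 7, where it fell short of background.

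Wnt5b (1439373_x_at) had levels of 7.13, 7.15, 6.60, 7.15 and 6.85, a mean of 6.98 ± 0.25 (n = 5), lowest in heart 8. The suffix _x_at marks a probe set that may hybridise to other transcripts. Without such probe sets Wnt5b was not detected, since 1422602_a_at, with 5.39, 5.69, 5.47, 5.19 and 5.26, exceeded background in 4 hearts.

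Wnt11, a ligand of the outflow tract and of cell movement, lay at the edge of detection. Its levels were 5.47, 5.48, 5.38, 5.13 and 4.96 in hearts 6 to 10, above background in 3 hearts and below it in hearts 9 and 10. Wnt3a and Wnt9b, a ligand of cushion remodelling, each exceeded background in 1 heart. For both this was heart 10, where the level was 5.01 against 4.99, the lowest background of the arrays. The Wnt7b count of 0 hearts held for both of its probe sets, and so did that of Wnt8b.

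The other ligands exceeded background in no heart: Wnt1, Wnt2, Wnt2b, Wnt3, Wnt4, Wnt6, Wnt7a, Wnt8a, Wnt9a, Wnt10a, Wnt10b and Wnt16. Their means lay between 4.06 for Wnt3 and 4.91 for Wnt2. Wnt2, known for a role in progenitors of the inflow region, had the highest level of these in any heart, 5.30 in heart 7, where background was 5.46. Wnt6 came nearest to background, with 5.15 in heart 6 against 5.23. Wnt1, a gene of the dorsal neural tube, had a mean of 4.07 ± 0.03 (n = 5), next to an intensity of 0.

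Several Wnt genes lie next to each other in the mouse genome. In the RefSeq table of GRCm38.p6, 4 pairs of members were direct neighbours among protein-coding genes, Wnt6 with Wnt10a on chromosome 1, Wnt3a with Wnt9a and Wnt9b with Wnt3 on chromosome 11, and Wnt10b with Wnt1 on chromosome 15. No gene of these pairs was detected. Wnt3a and Wnt9b were the members of the pairs that passed background in any heart, both narrowly and in heart 10 alone.

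The start-site windows of RefSeq (GRCm38.p6, 250 bases before to 50 after a start) were searched for the letters CTTTGAA and CTTTGAT on both strands, forms of the site that Tcf and Lef proteins bind. The 2 forms differ in the last base and cannot overlap in a given position and strand. Windows were at hand for 35 of 51 members, 43 windows in all. A match stood in 3 of them (6.98%), in Wnt5b, Wnt11 and Dkk1, against 8.65% of all 32851 windows, so the members' share was near that of promoters at large. The 250 upstream bases of these windows, all 3 with a match, are printed with the match in capitals. They belong to a detected ligand, a ligand at the edge of detection and an antagonist above background in no heart. For Wnt5b the window belongs to its start at chr6:119449387-119449636 (minus strand), for Wnt11 to chr7:98834862-98835111 (plus strand, match on the other strand) and for Dkk1 to chr19:30549497-30549746 (minus strand).
Wnt5b: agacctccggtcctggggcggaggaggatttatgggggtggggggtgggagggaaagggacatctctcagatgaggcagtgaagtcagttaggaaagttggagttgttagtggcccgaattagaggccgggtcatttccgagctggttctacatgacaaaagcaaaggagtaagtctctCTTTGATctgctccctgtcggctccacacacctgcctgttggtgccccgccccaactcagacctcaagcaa
Wnt11: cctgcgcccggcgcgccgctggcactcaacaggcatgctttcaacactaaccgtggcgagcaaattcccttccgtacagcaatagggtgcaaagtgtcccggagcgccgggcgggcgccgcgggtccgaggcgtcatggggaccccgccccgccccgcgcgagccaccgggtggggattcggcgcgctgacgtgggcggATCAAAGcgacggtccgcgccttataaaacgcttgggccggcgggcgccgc
Dkk1: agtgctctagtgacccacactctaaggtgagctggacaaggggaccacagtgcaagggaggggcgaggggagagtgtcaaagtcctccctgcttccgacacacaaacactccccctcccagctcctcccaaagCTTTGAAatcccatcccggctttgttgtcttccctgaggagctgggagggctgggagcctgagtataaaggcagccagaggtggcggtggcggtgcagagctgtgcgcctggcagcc
A match describes these letters and is not a measured binding site.

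Wnt5b also has a start in a window rich in CpG, at chr6:119544348-119544597 (minus strand), shown next with its 35 CG pairs in capitals as an example of a CpG-rich start; its ratio is among the highest of the members.
Wnt5b: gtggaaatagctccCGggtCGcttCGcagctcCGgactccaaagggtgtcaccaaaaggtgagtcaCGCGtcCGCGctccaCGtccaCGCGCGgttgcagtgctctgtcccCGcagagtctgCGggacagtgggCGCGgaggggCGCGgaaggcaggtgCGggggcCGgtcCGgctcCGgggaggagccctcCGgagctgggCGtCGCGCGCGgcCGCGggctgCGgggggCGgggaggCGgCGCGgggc
The ratio of observed to expected CpG was 1.06 in the whole 300-base window of this start and 0.31 in that of the start with the match, and the remaining Wnt5b window had 0.19. Taking the window of highest ratio for each gene, the median was 0.94 for 7 detected members, 0.75 for 28 others and 0.41 for 27025 genes in the table. Of the 35 members, 32 lay above that last median, so CpG-rich starts were common among detected and undetected members.

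Among receptors, Fzd2, Fzd3, Fzd6 and the co-receptor Lrp6 were detected. Fzd2, a receptor through which Wnt5a can act, showed the largest spread of any member. Its probe set 1418534_at had levels of 7.56, 9.39, 9.24, 7.96 and 9.66 in hearts 6 to 10, or intensities of 172.1, 653.6, 590.7, 232.9 and 792.8. Hearts 7, 8 and 10 stood high and hearts 6 and 9 low, with a range of 2.10 and an SD of 0.94 (n = 5).

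The pattern was not seen in the other Fzd2 probe sets, which are annotated to the same GenBank sequence. For 1418532_at the levels were 5.57, 6.01, 5.63, 5.93 and 5.39, with heart 10 lowest. For 1418533_s_at they were 5.53, 5.40, 5.74, 5.16 and 5.08, above background in 3 hearts and again lowest in heart 10. The summed intensity of the 10 red cell markers was 27946 in heart 7 and 26590 in heart 8 and between 18546 and 19233 in the others. Of these markers Alas2, which starts haem synthesis in red cell precursors, had levels of 8.96, 11.34, 10.50, 9.64 and 9.82, lowest in hearts 6 and 9. The other detected red cell markers ranked the hearts differently. Hbb-bh1, Hbb-y and Klf1 were lowest in hearts 9 and 10, Hba-x in hearts 6 and 10 and Slc4a1 in hearts 8 and 9. Tfrc was highest in heart 6 (10.39) and lowest in heart 7 (9.76). The part of red cells in the Fzd2 values was not tested.

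Lrp6, the co-receptor of beta-catenin signalling, had levels of 7.77, 6.61, 8.45, 7.53 and 7.81 (1428500_at), lowest in heart 7 and highest in heart 8, with a mean of 7.64 ± 0.66 (n = 5). Heart 7 had the highest Gapdh ratio and heart 8 the highest beta-actin ratio, given above, and their part in these values was not tested. Its probe set 1451022_at had 5.19, 4.96, 4.85, 4.06 and 4.42 and exceeded background in no heart. The related co-receptor Lrp5 exceeded background in no heart either, with a mean of 4.41 ± 0.31 (n = 5).

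Fzd3 and Fzd6, known for planar polarity, were detected by narrow margins. Fzd3 (1420087_at) had levels of 5.78, 5.69, 5.66, 5.86 and 5.97, which differed little, with an SD of 0.13. Its other probe sets exceeded background in 4 hearts (1449730_s_at, with 5.69, 5.06, 5.43, 5.39 and 5.36), 3 hearts (1450135_at, with 5.31, 5.10, 5.30, 5.14 and 5.40) and 1 heart (1421157_at, with 4.79, 4.44, 5.23, 5.14 and 5.37). Fzd6 (1417301_at) had 5.98, 5.73, 5.89, 5.68 and 5.96, while 1448662_at had 4.33, 5.08, 4.35, 4.36 and 5.09 and exceeded background in 1 heart. The smallest margins over background were 0.23 and 0.27. Fzd3 was not detected with background at the 99th percentile, and neither gene was detected when a gene's probe sets were averaged.

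Of the remaining Frizzleds, Fzd4, a receptor known from vessel growth, Fzd7 and Fzd8 each exceeded background in 2 hearts and Fzd9 in 1. Fzd7 (1450044_at) had 5.74 and 5.66 in hearts 8 and 10 and between 4.93 and 5.04 in the others. Its probe set 1450043_at did not show this, with 4.04, 4.29, 4.12, 4.11 and 4.26. That probe set and the second of Fzd4, 1449416_at, exceeded background in no heart. Fzd1 and Fzd5 exceeded background in no heart, with means of 4.51 ± 0.31 and 4.30 ± 0.25 (n = 5 each).

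**Figure D2:**
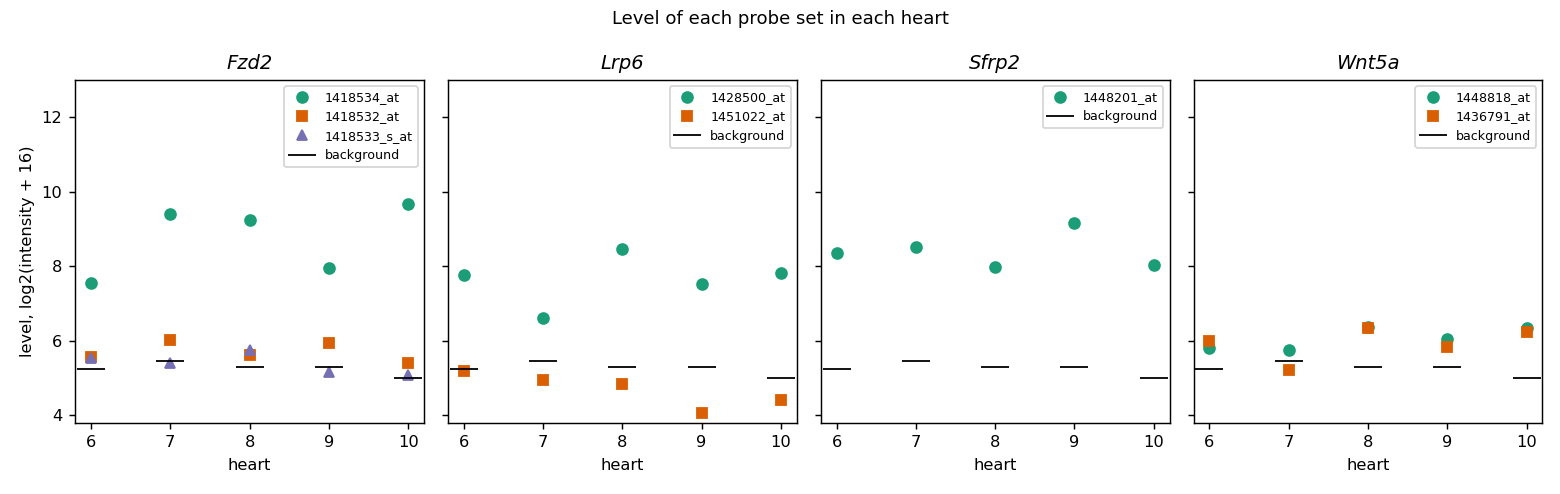
Level of each probe set (y axis, log2 of intensity plus 16) in hearts 6 to 10 (x axis) for Fzd2, Lrp6, Sfrp2 and Wnt5a, with 1 symbol per probe set and the array's background as a short line. The spread of Fzd2 from 7.56 to 9.66 appears in 1418534_at and not in the other 2 probe sets, while both Wnt5a probe sets are highest in hearts 8 and 10.

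The secreted antagonists were detected in 3 cases, Sfrp1, Sfrp2 and Dkk3. The Sfrp proteins carry a domain like the ligand-binding part of Frizzleds and bind Wnts outside the cell. Sfrp1 (1448395_at) had levels of 9.50, 9.63, 10.04, 9.67 and 9.23, a mean of 9.61 ± 0.29 (n = 5), and stayed at least 4.17 above background. Its probe set 1416594_at had 8.76, 9.48, 8.96, 8.89 and 8.54, highest in heart 7, and 1438620_x_at had 6.65, 7.09, 7.27, 6.99 and 7.14. The fourth, 1460187_at, had 5.57, 5.07, 6.12, 5.09 and 5.74 and exceeded background in 3 hearts. Heart 8 was highest in all of these but 1416594_at.

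Sfrp2 (1448201_at, its 1 probe set) had levels of 8.34, 8.51, 7.97, 9.16 and 8.03, a mean of 8.40 ± 0.48 (n = 5), with heart 9 highest and hearts 8 and 10 lowest. The rank of the hearts thus differed from that of Sfrp1. Dkk3 is the divergent member of the Dickkopf family, whose other members bind Lrp5 and Lrp6. Its levels were 8.78, 9.13, 9.25, 8.84 and 8.88 (1417312_at, mean 8.98 ± 0.20, n = 5) and 8.67, 8.98, 9.31, 8.63 and 8.71 (1448669_at, mean 8.86 ± 0.29, n = 5). Both probe sets placed heart 8 first and heart 7 next.

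The remaining antagonists gave little signal. Frzb, another Frizzled-related protein, had 5.45, 4.87, 4.98, 5.38 and 5.38 (1416658_at) and exceeded background in hearts 6, 9 and 10. Its probe set 1448424_at had 4.58, 4.47, 4.06, 4.91 and 4.76 and exceeded background in no heart. Dkk2 had 5.37 in heart 8, just above the background of 5.29, and between 4.08 and 4.61 in the others. Dkk1, Dkk4, Sfrp4, Sfrp5 and Wif1, a secreted Wnt-binding inhibitor, exceeded background in no heart, with means between 4.17 for Sfrp5 and 4.70 for Dkk1.

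**Figure D3:**
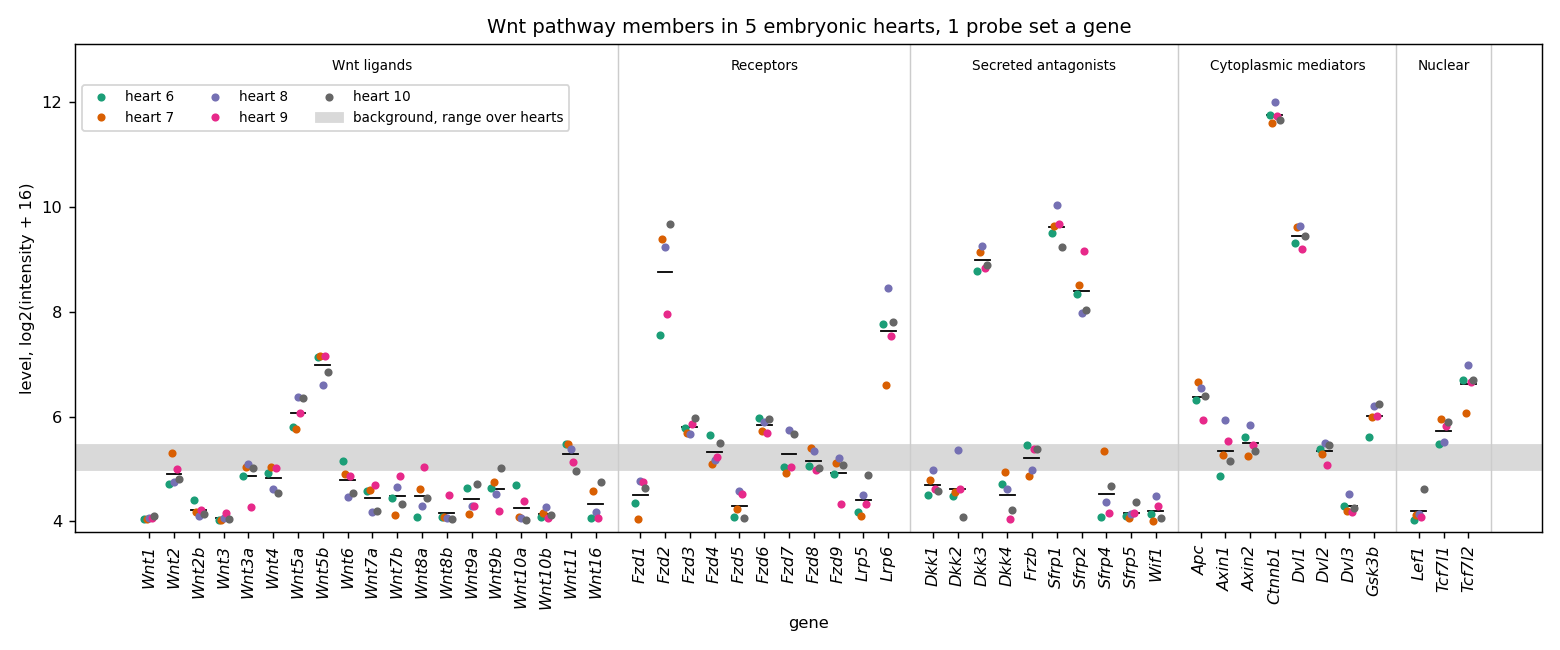
Level (y axis, log2 of intensity plus 16) of the 51 member genes by role, with 1 point per heart, a line at the mean over 5 hearts and a grey band for the background, 4.99 to 5.46 over the arrays. Wnt5a and Wnt5b are the ligands with all points above background, and Fzd2, with a range of 2.10, has the widest spread.

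Of the cytoplasmic mediators, Dvl1, Ctnnb1, Apc and Gsk3b were detected. Ctnnb1 encodes beta-catenin, which also links cadherins to actin at cell junctions. It had levels of 11.74, 11.59, 11.99, 11.72 and 11.65 (1420811_a_at), a mean of 11.74 ± 0.16 (n = 5), and a margin of at least 6.13 over background. Its probe set 1450008_a_at had 6.87, 6.01, 6.67, 6.76 and 6.85, with heart 7 lowest and apart from the rest, and 1430533_a_at had 5.64, 5.11, 5.46, 5.61 and 5.35, above background in 4 hearts and again lowest in heart 7.

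Apc, the scaffold protein that helps to mark beta-catenin for degradation, had levels of 6.31, 6.65, 6.54, 5.94 and 6.40 (1420957_at) and 6.38, 5.58, 5.87, 5.76 and 5.86 (1420956_at), which ranked the hearts differently. Its probe set 1450056_at, with 4.29, 4.18, 4.17, 4.08 and 4.41, exceeded background in no heart. Gsk3b, the kinase of the complex, had 5.61, 5.99, 6.21, 6.01 and 6.24, a mean of 6.01 ± 0.25 (n = 5), lowest in heart 6.

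Dvl1, which relays the signal from Frizzleds, had levels of 9.31, 9.61, 9.63, 9.19 and 9.44 (1437301_a_at, mean 9.44 ± 0.19, n = 5) and 5.43, 6.14, 6.34, 5.83 and 5.51 (1450978_at, mean 5.85 ± 0.39, n = 5). Both probe sets were highest in hearts 7 and 8. Dvl2 exceeded background in 3 hearts (5.34 ± 0.17) and Dvl3 in none (4.29 ± 0.14, n = 5 each). The second Dvl2 probe set, 1448616_at, exceeded background in no heart.

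Axin2, a feedback inhibitor that beta-catenin itself induces and that is often read as a reporter of the pathway, was near the limit. Its levels were 5.61, 5.24, 5.83, 5.46 and 5.34 (1436845_at), above background in all hearts but heart 7, and without heart 7 it counted as detected. Its probe set 1421341_at, with a mean of 4.50 ± 0.21 (n = 5), exceeded background in no heart. Axin1, the constant scaffold of the complex, had 4.87, 5.26, 5.93, 5.54 and 5.16 (1426966_at), above background in hearts 8, 9 and 10. Its probe set 1426967_at had 5.09, 5.20, 4.76, 4.16 and 5.09, lowest in heart 9, and exceeded background in 1 heart.

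Among nuclear factors, Tcf7l2 and Tcf7l1 were detected. Tcf7l2 (1429428_at) had levels of 6.70, 6.06, 6.98, 6.65 and 6.70, a mean of 6.62 ± 0.34 (n = 5), lowest in heart 7. Its probe set 1426639_a_at had 5.71, 5.68, 6.18, 6.17 and 5.85. The other Tcf7l2 probe sets were not detected, with 4.62, 4.79, 5.20, 4.10 and 4.61 for 1429427_s_at and 4.80, 4.11, 4.23, 4.72 and 5.07 for 1425229_a_at.

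Tcf7l1, which acts mostly as a repressor, had 5.48, 5.95, 5.52, 5.82 and 5.90 (1436207_at), with a smallest margin of 0.23, while 1450117_at, with 4.81, 4.73, 5.46, 5.04 and 4.99, exceeded background in 1 heart. With probe sets averaged, neither gene was detected. Lef1, a partner of beta-catenin and one of its targets, had 4.02, 4.13, 4.14, 4.09 and 4.61, below background in every heart.

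Probe sets of a gene often disagreed. Of 21 members with several probe sets, 11 had both detected and undetected ones (52.4%), where 43.8% of 4956 such genes in the table did. Dkk3 and Dvl1 were detected by every probe set, and 8 members by none. The 11 were Apc, Ctnnb1, Fzd2, Fzd3, Fzd6, Lrp6, Sfrp1, Tcf7l1, Tcf7l2, Wnt5a and Wnt5b.

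**Figure D4:**
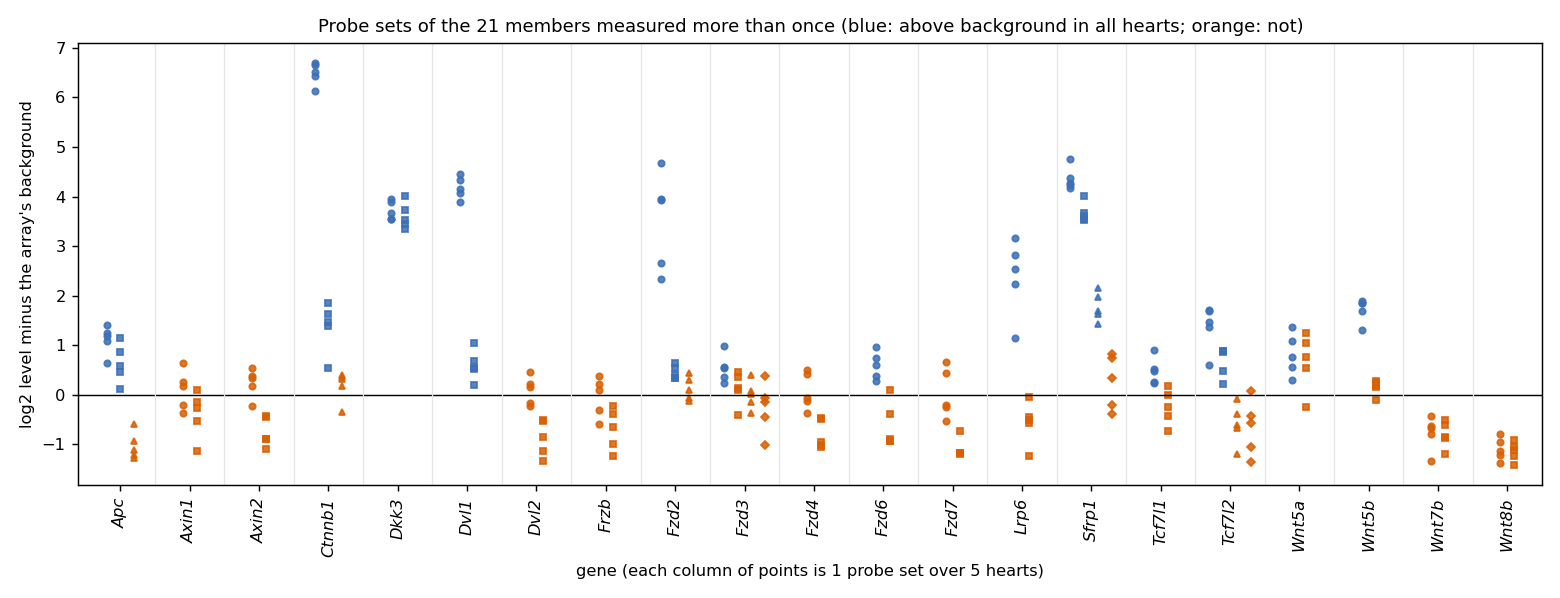
Level minus the array's background (y axis, log2 units) for every probe set of the 21 members measured more than once, each column of points being 1 probe set over 5 hearts and the line at 0 the background. Blue marks probe sets above background in all hearts; 11 genes show blue and orange columns side by side, while Dkk3 and Dvl1 show blue alone.

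Spread between the hearts was tested for each gene against limma's prior variance, with Benjamini-Hochberg adjustment over all 12393 genes. No member passed at an adjusted p of 0.05, and 5 of all genes did (0.0403%). At an unadjusted p under 0.05, 3 of 51 members (5.88%) stood beside 4.45% of all genes. They were Fzd2 (adjusted p = 0.182 by limma's variance test), Lrp6 (0.842) and Sfrp2 (0.960). Without heart 7, which was among the high ones, Fzd2 passed (adjusted p = 0.0409), and over the other 14 settings its adjusted p lay between 0.112 and 0.947. The median SD was 0.25 over the members and 0.26 over all genes. Over the 15 detected members it was 0.25, with a range from 0.13 to 0.94, beside 0.24 over all 6509 detected genes.

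The high and the low hearts varied from member to member. Of the 15 detected members, 7 had their highest level in heart 8, 3 in heart 10, 2 each in hearts 7 and 9 and 1 in heart 6, where heart 8 was highest for 21.2% of all detected genes. The lowest level fell in heart 6 or heart 7 for 4 of the 15 members each, where 22.6% and 28.3% of all detected genes were lowest. Members above background numbered 16 in heart 7 and 25 in heart 10, the hearts with the highest and the lowest background, 5.46 and 4.99. Over all genes the same 2 hearts had the fewest and the most genes above background, 56.3% and 65.3%.

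Other genes of the pathway, taken from 6 lists, were detected in 47 of 75 cases (62.7%), beside the 52.5% of all genes. None passed limma's variance test (lowest adjusted p = 0.864), and 2 had an unadjusted p under 0.05. Detection was lowest in the list of further receptors and their turnover, 2 of 9. These were Ror2, a receptor of Wnt5a (6.14 ± 0.39), and Ryk (6.70 ± 0.26, n = 5 each). The R-spondin gene Rspo1, whose product enhances Wnt signalling, exceeded background in 3 hearts, and Lgr5, Lgr6, Rspo2, Rnf43, Kremen1 and Ror1 in none.

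Of the genes for Wnt release and the extracellular space, 4 of 9 were detected. Wls, which carries Wnt proteins to the cell surface, had levels of 7.54, 6.54, 7.02, 7.04 and 7.06 in hearts 6 to 10, highest in heart 6. The glypican Gpc4 had 7.72 ± 0.27 and the antagonist Apcdd1 7.27 ± 0.17 (n = 5 each). Porcn, the enzyme that attaches the lipid to Wnt proteins, exceeded background in no heart (4.50 ± 0.35, n = 5).

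Of further genes of the destruction complex and its regulators, 9 of 13 were detected, among them Gsk3a (6.70 ± 0.14) and the casein kinases Csnk1a1 (10.67 ± 0.30) and Csnk1d (9.03 ± 0.06, n = 5 each). Of nuclear cofactors, 12 of 15 were, including the beta-catenin partners Bcl9 (6.31 ± 0.23), Bcl9l (5.65 ± 0.19) and Pygo2 (9.26 ± 0.20, n = 5 each). Of planar polarity genes, 9 of 13 were, including Vangl1 (7.42 ± 0.32), Celsr1 (6.10 ± 0.32) and Celsr2 (5.62 ± 0.27, n = 5 each), while Vangl2, Celsr3 and Ptk7 exceeded background in no heart. The smallest margin over background was 0.13 for Celsr1, 0.01 for Celsr2 and 0.07 for Bcl9l. With probe sets averaged, 7 of 13 planar polarity genes and 11 of 15 nuclear cofactors were detected. The same counts held with background at the 99th percentile.

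Genes known as Wnt targets in some tissue were detected in 11 of 20 cases (55.0%), a share near the 52.5% of all genes. The cyclin genes Ccnd1 and Ccnd2 had levels of 8.97 ± 0.14 and 11.33 ± 0.23, and the adhesion receptor gene Cd44 6.93 ± 0.50 (n = 5 each). The 9 that were not detected, Myc, Sp5, Cdx1, Mmp7, Fgf8, Nkd1, Lgr5, Rnf43 and Notum, exceeded background in no heart. The others detected were Tbx3, Id2, Isl1, Vcan, Fn1, Jun, Birc5 and Tnfrsf19. Many of these genes also respond to other signals.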

How the data were processed

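Hearts of 5 wild-type embryos were measured, 1 Affymetrix 430A array each. The deposited table holds linear intensities per probe set; GCOS is named in the submitters' processing notes as the authors' software, while the sources used here give no version, summary method or settings. The 2% trimmed mean of the deposited values was 150.1 on every array, so differences in total signal are removed. Amplification of little RNA can add noise to weak transcripts. Of 22690 probe sets, 20393 had 1 symbol, 691 several and 1606 were not listed; 64 were controls, some of them with 1 symbol, and were left out. By Entrez number, all 81 member probe sets had the same symbol in the RefSeq table of GRCm38.p6.

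Arrays were scaled to a common trimmed mean and taken as log2(intensity + 16); this offset compresses differences of weak genes. Background used 62 measured of 70 listed off-tissue genes, of which 1, the thyroglobulin gene Tg, exceeded it in all hearts. Each variance (4 degrees of freedom) was tested by F against limma's robust, trended prior (12.06 degrees of freedom), upper tail, with R 4.3.3 and limma 3.58.1; this was first tested on simulated data. The p-values ask whether a gene's spread over these 5 samples exceeds the prior for its mean level, which comes from all genes. A gene that varies as much as others of its level thus gets a large p. With 1 array per heart, spread between embryos and spread from the assay cannot be told apart. Alternatives were other scalings, offsets of 1 and 64, averaged probe sets, no _x_at or _s_at probe sets, each heart left out, background at the 90th or 99th percentile, 3 hearts, dim genes left out, other priors, and every probe set on its own.

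Members, lists and tests were chosen with earlier results of these data known. Every member is named, with values per heart for those detected, those with disagreeing probe sets, those far from the other hearts in 1 heart, and the detected members of largest SD; of other lists, up to 3 detected genes in written order. Any further gene was picked with its values in view.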

Additional observations from a re-analysis of the deposited data

Results flagged for a closer look

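In 5 of 81 member probe sets (6.17%) 1 heart stood apart from the other 4 by Dixon's ratio, the gap to the nearest heart divided by the whole range, with a critical value of 0.71. The share over all 20380 probe sets was 7.86%, and chance flags about 1 in 20. Of the 5, 1 was above background, Ctnnb1 probe set 1450008_a_at, where heart 7 had 6.01 and the rest 6.67 to 6.87 (ratio 0.770); heart 7 was also lowest in the other 2 Ctnnb1 probe sets. For Lef1, heart 10 had 4.61 and the rest 4.02 to 4.14 (0.808). For Wnt3, heart 9 had 4.16 and the rest 4.02 to 4.06 (0.763). For Wnt3a, heart 9 had 4.27 and the rest 4.87 to 5.10 (0.727). For Wnt8b probe set 1421440_at, heart 9 had 4.51 and the rest 4.04 to 4.09 (0.890). All values of Lef1, Wnt3 and Wnt8b lay below background.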

How the results depend on the processing

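The detected members numbered 11 to 20 of 51 over the 14 other settings, with 11 when probe sets were averaged and 20 when 3 hearts sufficed, and 15 to 16 with a heart left out. The share of all genes was higher in each of these settings. The call was the same in every setting for 10 of the 15 detected members and for 30 of the 36 others. The exceptions were Fzd3, Fzd6, Tcf7l1, Tcf7l2 and Wnt5b, and Axin1, Axin2, Dvl2, Frzb, Fzd8 and Wnt11. Leaving a heart out, background at the 90th percentile and the rule of 3 hearts loosen detection. They could hardly remove the call of a detected member. The trimmed mean was the same on every array, so unscaled values nearly repeat the main setting. Detected members lost their call with averaged probe sets, without _x_at and _s_at probe sets, or with background at the 99th percentile. Detected probe sets numbered 35 when 3 hearts sufficed and 23 to 27 with a heart left out. Members with disagreeing probe sets numbered 9 to 11. The member that passed the variance test without heart 7 was Fzd2, so the count was 0 to 1 with a heart left out, and 0 otherwise. Over all genes that test called 8 at an offset of 1, 1 with probe sets averaged, 2 with a prior that was not robust, 2 without its trend, 9 with every probe set on its own, and 3 to 9 with a heart left out; the cause was not tested. The median SD of the members was 0.53 at an offset of 1, where that of all genes was 0.41, since a smaller offset compresses weak signals less. It was 0.10 at an offset of 64, where that of all genes was 0.14, and 0.23 to 0.25 with a heart left out. No paired analysis was possible because the hearts form 1 group. Weak signal over background limits most ligands and antagonists, whose levels lie near that of an intensity of 0.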

Other observations

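Some pathway genes had their lowest level in heart 7, the heart with the highest 3' to 5' Gapdh ratio, while the beta-actin ratio was highest in heart 8. They were picked with their values in view. Gpc3, a glypican of the cell surface, had 5.37 there and 6.11 to 7.01 elsewhere, highest in heart 8. Vps35, a part of the retromer that recycles Wls, had 6.48 there and 7.28 to 7.79 elsewhere. Cd44 had 6.14 there and 6.76 to 7.38 elsewhere. Their adjusted p by limma's variance test was 0.864 for Gpc3 and 0.960 for Vps35 and Cd44. Other pathway genes were highest in heart 7, among them Vangl1, Ruvbl2 and Gsk3a. Heart 7 held the lowest level of 28.3% of all detected genes and the highest of 30.8%. The part of RNA quality in these values was not tested.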
